A study of Mus musculus with 2 samples.

Results

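The genes described here encode the working parts of the spliceosome and the RNA-binding proteins that steer it. They comprise every gene measured under exactly 1 platform symbol beginning with Snrp, Lsm, Sf3a, Sf3b, Prpf, Srsf or Hnrnp, which gave 64 genes and 148 probe sets out of 12393 genes and 20380 probe sets with 1 symbol. RNA came from splenic CD4+ T cells of DBA/1 mice, which are susceptible to arthritis, and of C57BL/6 mice, which are resistant, both 7 days after immunisation with GPI (glucose-6-phosphate isomerase), and was hybridised to 1 array per strain. The cells were enriched by magnetic sorting, the labels name no transgene or deletion in either strain, and the sources used here do not state the age, sex or number of mice per sample. With 1 array per strain the values carry no replicate error and no test.

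Introns are removed from pre-mRNA by small nuclear ribonucleoprotein particles (snRNPs), each a small nuclear RNA wrapped in a ring of Sm or Sm-like (Lsm) proteins. The U1 particle marks the start of an intron, the U2 particle and its SF3a and SF3b complexes hold the branch point, and the tri-snRNP and the complex around Prpf19, which contain many Prpf proteins, build the catalytic centre. SR proteins bound to exons generally promote the use of nearby splice sites, hnRNP proteins often repress it, and in T cells the balance decides, among others, which exons of the CD45 surface phosphatase are kept.

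Signals are linear intensities, 1 per probe set and array, and a difference is given as log2 of the DBA/1 signal divided by the C57BL/6 signal (log2 ratio). Dim signals were raised to a floor before division, namely the median of the array, which was 37.6 in DBA/1 and 38.04 in C57BL/6. The brightest probe set (by the mean of its log2 signals) stands for a gene, and signals of different probe sets are not compared with each other. On the deposited scale the median log2 ratio of all 6936 genes over the floor in either strain was 0.10, so a ratio near 0.10 is the middle of the arrays. The sorted samples both carried T cell transcripts: Cd4 read 913 in DBA/1 and 857 in C57BL/6, Cd3e 747 and 791, and 8 of 8 measured CD4 T cell markers were above the floor. Of these 8 markers 6 were lower in DBA/1 (summed signal 11147 in DBA/1 and 12287 in C57BL/6). Furthest apart among them were Zap70, Thy1 and Cd28 (log2 ratios -0.67, -0.54 and -0.30). Markers of other spleen cells differed between the samples. All 12 measured neutrophil markers were above the floor and higher in DBA/1 (summed signal 34867 in DBA/1 and 10731 in C57BL/6), as were all 12 monocyte and macrophage markers (6909 and 3068). Of 11 measured B cell markers, 9 were above the floor and 8 of these were higher in DBA/1 (1785 and 957), while all 6 CD8 T cell markers were lower (405 and 1043). Of 4 NK cell markers above the floor 2 were higher and 2 lower in DBA/1. Of 4 erythroid markers above the floor 3 were higher and 1 lower. No marker was listed at 0. Of the neutrophil, macrophage, B cell and CD8 markers, those furthest apart were Cd177, Lcn2 and Ltf (log2 ratios 2.84, 2.71 and 2.69), Hmox1, Fcgr3 and Lyz2 (1.77, 1.73 and 1.65), Cd72, Blk and Cd22 (-1.70, at least 1.51 and 1.30), and Cd8b1, Nkg7 and Klrk1 (at or below -2.41, -1.92 and -1.06). The part of these other cells in the values below was not tested, and in such a bulk sample fewer cells of a type and less RNA per cell cannot be told apart.

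Splicing genes were clearly detected, and few of them were far apart between the 2 strains. Of the 64 members 61 were above the floor, all of them on both arrays, and 53 reached the minimum signal, which is the 75th percentile of an array (171 in DBA/1 and 162 in C57BL/6). The median log2 ratio of the 61 was 0.04, against 0.10 over all genes. A ratio above 0 was seen for 35 of 61 members, and for 60.6% of all genes above the floor; the member count was 26 after median centring, 25 after quantile normalization and 22 under a lowess fit. Members at least 1.5-fold higher in DBA/1 numbered 2 of 61 (Lsm12 and Snrpb2), where 11.8% of all genes were that much higher, and 1 of 61 (Prpf19) was at least 1.5-fold lower, where 5.97% of all genes were. Under median centring, quantile normalization and lowess alike, 1 member was that much higher, Snrpb2 no longer being so, and 3 were that much lower (Prpf19, Hnrnph2 and Sf3b2). Among the 53 members at or over the minimum signal, 1 was that much higher (against 12.3% of 3920 genes) and 1 that much lower (against 4.97%). Differences of 1.5-fold or more thus occurred in 4.92% of members and 17.8% of all genes. The typical member was about as far from equality as the typical gene. Fewer than 1.2-fold apart were 31 of 61 members, or 50.8%, against 48.9% of all genes, and 27 of the 53 brighter members, against 49.4% of genes of that brightness. The median absolute log2 ratio was 0.26 in members and 0.27 in all genes.

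The spread of the ratios across members, an SD of 0.34, was smaller than that across all genes (0.52). It can be set beside the disagreement between different probe sets of 1 gene on the same arrays, the only internal repeat these data hold. Over 2325 genes with 2 probe sets over the floor in both strains the error per probe set was 0.31 in log2 ratio, and over the 33 members with such a pair it was 0.25. Of the 61 members 38 (62.3%) had an absolute ratio under 0.31, against 55.7% of all genes. This error covers the probes only, and not mice, sorts or labelling.

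**Figure D1:**
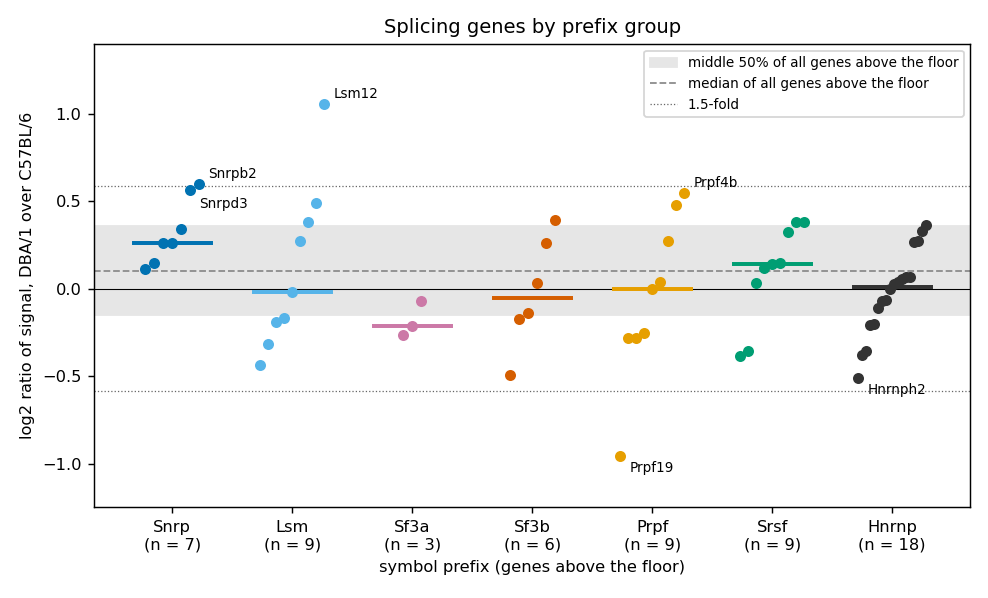
Log2 of DBA/1 signal over C57BL/6 signal (vertical axis) for each of the 61 splicing genes above the floor, by symbol prefix; points are genes, coloured bars are group medians, the grey band holds the middle 50% of all genes above the floor and dotted lines mark 1.5-fold. On the deposited scale shown, all 7 Snrp genes lie above 0 (5 of 7 under a lowess fit) and all 3 Sf3a genes below it, and only Lsm12, Snrpb2 and Prpf19 pass a dotted line.

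The Snrp genes, which encode the Sm ring and proteins particular to U1 and U2, were the prefix group with the highest median; only among genes at the minimum signal was that of Lsm higher, at 0.33 over 4 genes. All 7 members above the floor had a ratio over 0 and also over the median of all genes, with a group median of 0.26; under a lowess fit 5 of 7 were above 0. Of the Sm ring, Snrpd3 (SmD3) read 864 in DBA/1 and 585 in C57BL/6 (log2 ratio 0.56), and its other probe sets were below the floor on both arrays. Snrpg (SmG) read 3266 in DBA/1 and 2574 in C57BL/6 (0.34), and its other probe set read 1630 and 1025 (0.67). Snrpe (SmE) read 2602 in DBA/1 and 2175 in C57BL/6 (0.26). The ring subunit Snrpb (SmB) differed less, at 919 in DBA/1 and 830 in C57BL/6 (0.15). These 4 ring genes, which do not make up the whole ring, were thus all higher in DBA/1 on the deposited scale. The amounts ran from 1.11-fold to 1.48-fold, while Snrpb lay just below 0 under lowess.

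Among the particle-specific Snrp genes, Snrpb2, whose product binds a hairpin of U2 RNA, read 823 in DBA/1 and 543 in C57BL/6 (1.52-fold, log2 ratio 0.60). It was under 1.5-fold after median centring (0.50), quantile normalization (0.47) and lowess (0.45), with log2(signal + 32) (0.57) and with the mean over probe sets (0.53). Its second probe set gave a like value, 715 in DBA/1 and 519 in C57BL/6 (log2 ratio 0.46). Snrpa1, the partner of that protein in the U2 particle, read 348 in DBA/1 and 322 in C57BL/6 (0.11). Its other probe sets did not agree on a direction: 1 read 302 in DBA/1 and 223 in C57BL/6 (0.44), and the other read 168 and 279 (-0.73). Snrpc, the U1 protein that steadies pairing at the start of the intron, read 516 in DBA/1 and 430 in C57BL/6 (0.26). Snrpn, a tissue-restricted relative of SmB, was measured under its own symbol by 1 probe set, which was below the floor on both arrays (1.69 in DBA/1 and 0.694 in C57BL/6). The 7 Snrp genes remained above 0 after median centring and after quantile normalization, but under a lowess fit Snrpa1 and Snrpb lay at or just below 0 (-0.00012 and -0.0095), and with the mean over probe sets Snrpa1 lay at -0.06. The cell cycle list was higher in DBA/1 in the same samples for 14 of 17 genes, with a median of 0.47, and its part in the Snrp values was not tested.

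The upstream sequences of the 3 Snrp genes furthest apart and of Prpf19, the member with the lowest ratio, are shown because promoters are a feature that the choice of members did not use. They are the 150 bases before the annotated start in RefSeq, build GRCm38.p6, which represents C57BL/6J, read 5′ to 3′ on the gene's own strand, here the plus strand for all 4. Capitals mark CCGGAAG, the core bound by ETS factors, or its reverse complement CTTCCGG. Prpf19 has 2 windows in RefSeq, of which the one holding the core is given.
Snrpb2, chr2:143062919-143063068: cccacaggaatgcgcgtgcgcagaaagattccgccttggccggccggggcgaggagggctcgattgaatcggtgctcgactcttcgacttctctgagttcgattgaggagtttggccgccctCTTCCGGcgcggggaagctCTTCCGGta
Snrpd3, chr10:75517892-75518041: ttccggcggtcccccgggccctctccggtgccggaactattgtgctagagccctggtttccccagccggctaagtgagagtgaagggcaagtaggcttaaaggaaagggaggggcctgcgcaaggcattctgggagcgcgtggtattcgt
Snrpg, chr6:86371390-86371539: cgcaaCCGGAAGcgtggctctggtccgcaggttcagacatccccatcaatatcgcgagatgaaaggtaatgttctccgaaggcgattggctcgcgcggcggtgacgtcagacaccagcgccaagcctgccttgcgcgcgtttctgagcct
Prpf19, chr19:10895081-10895230: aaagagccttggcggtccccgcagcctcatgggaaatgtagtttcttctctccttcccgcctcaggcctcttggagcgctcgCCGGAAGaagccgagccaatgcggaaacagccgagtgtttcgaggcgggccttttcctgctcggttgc

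RefSeq windows of 300 bases, 250 before and 50 after a start, were present for 56 of the 64 members, 77 windows in all. CCGGAAG was found on either strand in 31.2% of the members' windows, in 20.1% of windows of all genes above the floor and in 8.86% of all windows in the table. Counted by gene, it was in 33.9% of these 56 members and in 23.7% of genes above the floor that had a window. By group, 4 of 7 Snrp genes, 3 of 3 Sf3a, 3 of 4 Sf3b, 4 of 10 Prpf, 3 of 9 Srsf, 2 of 16 Hnrnp and 0 of 7 Lsm genes had it. Of 3 other motifs searched on both strands, none of which contains another, the GC box GGGCGG was in 66.2% of members' windows and 64.0% of windows of genes above the floor, CCAAT in 46.8% and 37.2%, and the TATA box TATAAA in 7.79% and 7.03%. A match of letters is a description of the sequence and does not show binding.

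The Lsm genes, which were each measured by 1 probe set, went both ways. Lsm proteins form a ring on U6 RNA in the nucleus, in which Lsm8 takes part, and a cytoplasmic ring for mRNA decay, in which Lsm1 takes its place. Lsm3, shared by both rings, read 684 in DBA/1 and 487 in C57BL/6 (log2 ratio 0.49). Lsm8 read 614 in DBA/1 and 470 in C57BL/6 (0.38). The shared subunits Lsm4 (556 in DBA/1 and 692 in C57BL/6, -0.32), Lsm7 (114 and 154, -0.44) and Lsm2 (75.5 and 86.2, -0.19) were lower in DBA/1. Subunits of a single ring were therefore measured on both sides of 0, and the median of these 5 was -0.19. The cytoplasmic subunit Lsm1 read 196 in DBA/1 and 163 in C57BL/6 (0.27).

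Of the Lsm genes outside those rings, Lsm12, an Lsm-domain protein known as a partner of ataxin-2, had the largest ratio of all members on the deposited scale. Its signals were 95.1 in DBA/1 and 45.7 in C57BL/6 (2.08-fold). Both values are near the floor, under the minimum signal on both arrays, and rest on 1 probe set. With the floor at percentile 60 of each array its ratio was 0.40, which is under 1.5-fold and under that of Snrpb2 (0.60). Lsm10, a subunit of the U7 particle that trims histone mRNAs, was near equal, at 148 in DBA/1 and 149.6 in C57BL/6 (-0.02). Lsm14b, a relative of the P-body protein Lsm14a, read 116 in DBA/1 and 130.2 in C57BL/6 (-0.17). Lsm14a itself was below the floor on both arrays (4.35 in DBA/1 and 2.06 in C57BL/6).

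**Figure D2:**
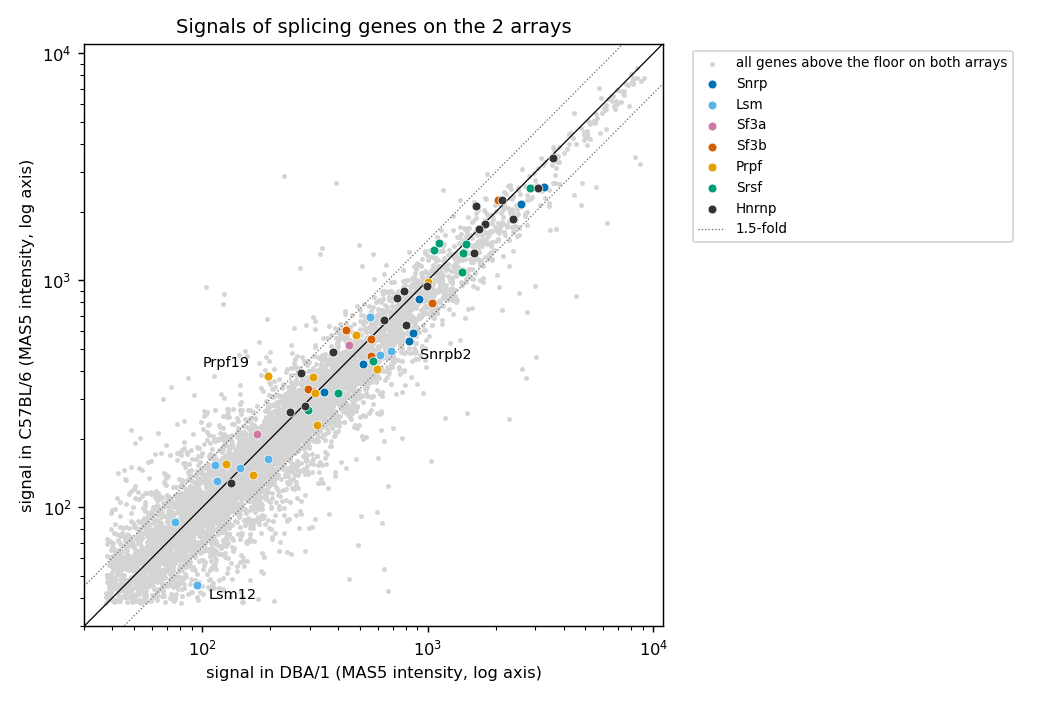
Signal in DBA/1 (horizontal axis) against signal in C57BL/6 (vertical axis), both MAS5 intensities on log axes, for the 61 splicing genes above the floor (coloured by prefix) over all genes above the floor on both arrays (grey); the solid line marks equal signals and dotted lines 1.5-fold. Splicing genes follow the solid line over the whole range, with Prpf19 above the dotted lines and Lsm12 and Snrpb2 below them.

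Genes of the U2 complexes SF3a and SF3b went both ways. All 3 Sf3a genes, which encode the complex that bridges SF3b and the U2 ring, were lower in DBA/1, with a median of -0.22. Sf3a1 read 175 in DBA/1 and 210.1 in C57BL/6 (-0.27), Sf3a2 449 and 522 (-0.22), and Sf3a3 310 and 325 (-0.07). The second probe sets of Sf3a1 and Sf3a3 pointed the other way (0.27 and 0.23), and that of Sf3a2 the same way (-0.15). With the mean over probe sets the Sf3a median was -2.9e-05, so the direction of this group rests on the choice of probe set.

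Of the 6 Sf3b genes 3 were above 0 and 3 below, with a median of -0.05. Sf3b1, the subunit that clamps the branch point, read 2045 in DBA/1 and 2249 in C57BL/6 (-0.14), and its other probe sets lay at 0.03 and 0.13. Sf3b2, a scaffold next to it, read 432 in DBA/1 and 607 in C57BL/6 (-0.49). That value comes from a probe set ending in _x_at, and the other 3 Sf3b2 probe sets lay at -0.03, -0.29 and 0.10. The small subunit Sf3b6, which sits at the branch point, was the highest of the group, at 1047 in DBA/1 and 799 in C57BL/6 (0.39). Sf3b5 read 557 in DBA/1 and 466 in C57BL/6 (0.26). Sf3b3 (0.03) and Sf3b4 (-0.17) were closer to equal.

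The Prpf genes belong to the tri-snRNP, the Prpf19 complex and U1-associated proteins, and their median was 0.00 over 9 members above the floor. Prpf8, the scaffold of the catalytic centre, read 1006 in DBA/1 and 981 in C57BL/6 (0.04). Prpf6, which bridges the U5 and U4/U6 particles, read 317.6 in DBA/1 and 317.8 in C57BL/6. In these probe sets the central proteins differed by at most 1.03-fold, while the other Prpf6 probe set above the floor, which ends in _x_at, read 125 in DBA/1 and 141 in C57BL/6 (-0.17). The U4/U6 proteins Prpf3 (127 in DBA/1 and 155 in C57BL/6, -0.28) and Prpf31 (168 and 139, 0.28) differed a little in opposite directions. Prpf38a, which joins at the B complex stage, read 323 in DBA/1 and 231 in C57BL/6 (0.48). Its relative Prpf38b read 481 in DBA/1 and 574 in C57BL/6 (-0.25), with a second probe set at -0.55. Prpf39, a U1-associated protein, was at 309 in DBA/1 and 375 in C57BL/6 (-0.28), and its relative in U1 function Prpf40b was below the floor on both arrays (24.9 and 26.8).

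Prpf19 and Prpf4b show how far a value can rest on 1 probe set. Prpf19, the ubiquitin ligase at the core of the complex that carries its name, read 195 in DBA/1 and 379 in C57BL/6 in its brightest probe set, 1.94-fold lower in DBA/1 (log2 ratio -0.96). A second probe set read 204 in DBA/1 and 330 in C57BL/6 (-0.69), and the third read 145.5 in DBA/1 and 101 in C57BL/6 (0.53). The probe sets of Prpf19 thus disagreed in direction, and their mean was not 1.5-fold from equality. Prpf4b, a kinase that phosphorylates tri-snRNP proteins, read 593 in DBA/1 and 405 in C57BL/6 in the brightest of its 6 probe sets (0.55). The others ranged from -0.34 to 0.50, with 3 of them below 0.

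The SR protein genes were all above the minimum signal, and 7 of 9 had a ratio above 0 on the deposited scale, with a median of 0.14, against 6 of 9 after median centring and 4 of 9 after quantile normalization or lowess. Srsf2, an SR protein that binds exonic enhancers, read 1425 in DBA/1 and 1092 in C57BL/6 (0.38), and its other probe sets above the floor lay at 0.81 and 0.07. Srsf4 read 575 in DBA/1 and 441 in C57BL/6 (0.38), and Srsf9 400.1 and 320 (0.32). Srsf5 (2831 in DBA/1 and 2563 in C57BL/6, 0.14), Srsf10 (296 and 268, 0.14) and Srsf11 (1430.5 and 1315, 0.12) were close to the middle of all genes. Srsf10, whose product represses splicing when it loses its phosphates after heat shock, had 3 further probe sets, at 0.07, -0.25 and -0.75 (the last 151 in DBA/1 and 254 in C57BL/6). The heat shock and immediate early list was lower in DBA/1 for 9 of 12 genes, with a median of -0.11. Its 4 genes at least 1.5-fold lower were heat shock genes. These were Hspa1a, Hspa1b and Dnajb1 (log2 ratios -3.17, -2.78 and -1.17), and Hsph1. The other genes of the list went both ways. Fos, Fosb, Junb, Ier2 and Dusp1 were lower by less than 1.5-fold. Jun, Egr1 and Atf3 were higher, Atf3 by at least 1.5-fold. Of all genes above the floor 60.6% had a ratio above 0. The part of this list in the Srsf10 values was not tested.

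Srsf1, Srsf6 and some probe sets of Srsf3 went toward C57BL/6. Srsf1, the founding SR protein, read 1064 in DBA/1 and 1360.4 in C57BL/6 (-0.35). Its 6 probe sets ranged from -0.40 to 0.09. Srsf6 read 1124 in DBA/1 and 1465 in C57BL/6 (-0.38), while its other probe sets lay at 0.01 and 0.00. Srsf3, an SR protein that also serves mRNA export, was equal in its brightest probe set (1475 in DBA/1 and 1444 in C57BL/6, 0.03). The lowest of its 6 probe sets, at -1.53 (190.3 in DBA/1 and 551 in C57BL/6), ends in _x_at, and the remaining 4 lay between -0.43 and -0.04. The SR group had a median of -0.04 after quantile normalization, -0.02 under lowess and -0.04 when every probe set was counted, so its direction depends on scaling and on the probe sets.

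The hnRNP genes, the largest group with 18 members, were all above the floor. On the deposited scale their median was 0.01 with 10 of 18 above 0, against -0.09 with 4 above 0 after median centring, -0.15 with 5 after quantile normalization and -0.16 with 4 under lowess. Only 4 of 18 lay above the median of all genes, and 11 of 18 (61.1%) were under 1.2-fold apart, against 48.9% of all genes. Hnrnpu, which binds RNA and chromatin, read 1692.03 in DBA/1 and 1691.66 in C57BL/6, and Hnrnpk, which binds cytosine-rich RNA, read 1801 and 1770 (0.03). Hnrnpa2b1 read 2142 in DBA/1 and 2250 in C57BL/6 (-0.07), and all 4 of its probe sets lay below 0. Hnrnpa1, a repressor of many exons, read 781 in DBA/1 and 902 in C57BL/6 (-0.21), with further probe sets at 0.18 and 0.34. Hnrnpd, which binds AU-rich elements of unstable mRNAs, read 989 in DBA/1 and 946 in C57BL/6 (0.06). Hnrnpab (3585 in DBA/1 and 3448 in C57BL/6) and Hnrnpl (135 and 129) lay at 0.06 and 0.07.

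Larger hnRNP differences were seen at both ends. Hnrnpc, which binds uridine tracts and keeps cryptic exons out of mRNA, read 2396 in DBA/1 and 1857 in C57BL/6 (0.37), and its other probe set lay at 0.48. Hnrnpll, the T cell regulator that silences CD45 exons upon activation, read 802 in DBA/1 and 639 in C57BL/6 (0.33). Its second probe set read 271 in DBA/1 and 166 in C57BL/6 (0.70). Both genes were thus higher in DBA/1 in each of their 2 probe sets. Hnrnpdl (3086 in DBA/1 and 2551 in C57BL/6, 0.27) and Hnrnph1 (1596 and 1326, 0.27) were also higher in the probe set used, but the 6 Hnrnpdl probe sets ranged from -0.35 to 0.27.

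At the other end, Hnrnph2, which binds guanine tracts as Hnrnph1 does, read 274 in DBA/1 and 391 in C57BL/6 (-0.51). Hnrnpf, of the same subfamily, read 1639 in DBA/1 and 2129 in C57BL/6 (-0.38) in a probe set ending in _x_at. The Hnrnpf probe sets with other endings lay at 0.18 and 0.04. Hnrnpm (379 in DBA/1 and 485 in C57BL/6, -0.35) and Hnrnpr (730 and 838, -0.20) were lower too, though 1 of 3 Hnrnpr probe sets lay above 0. Hnrnph3 (-0.11), Hnrnpul1 (-0.06) and Hnrnpul2 (0.04) completed the group.

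**Figure D3:**
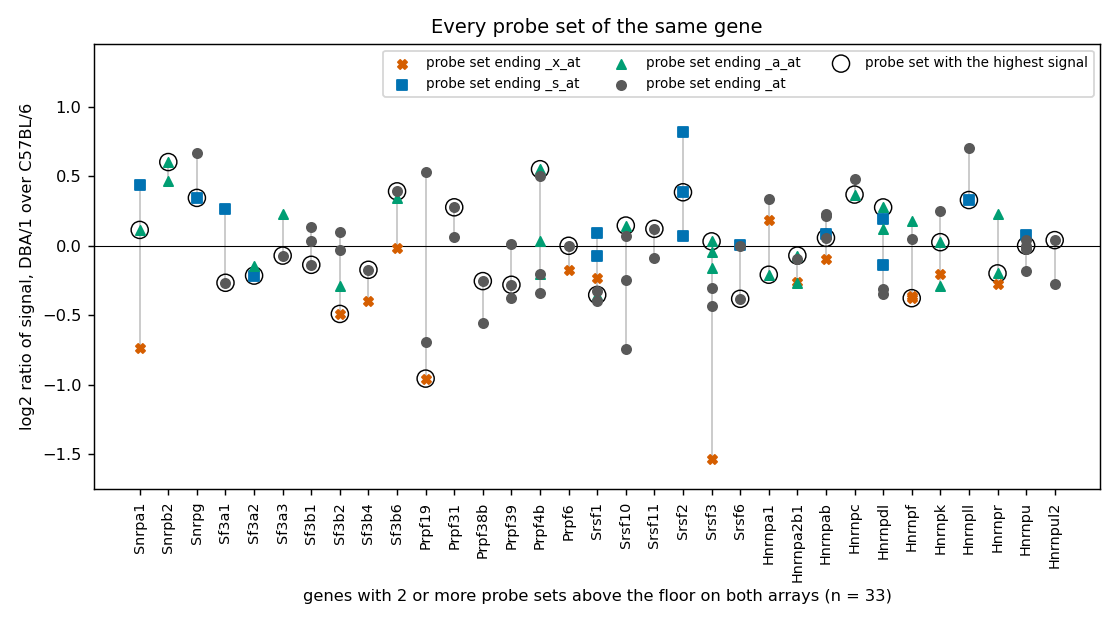
Log2 of DBA/1 signal over C57BL/6 signal (vertical axis) for every probe set over the floor in both strains, for the 33 splicing genes (horizontal axis) with 2 or more of them; the marker shows the ending of the probe set name, and the open circle the probe set with the highest mean signal. In 22 of the 33 genes the probe sets lie on both sides of 0, and orange crosses (_x_at) tend to be the lowest points.

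Across the probe sets of a gene, direction was often not shared. Of 135 member probe sets over the floor in both strains, 70 had a ratio above 0. In 22 of the 33 members with 2 or more such probe sets they lay on both sides of 0, and in 3 (Prpf19, Snrpa1 and Srsf3) they spread by more than 1 in log2 ratio. No such counts over all genes or all probe sets are given here, so these counts do not show whether the members are unusual. The 2 brightest probe sets had the same sign in 57.6% of these 33 members and in 68% of 2325 genes overall. Probe sets of 1 class lay low among the members. A name ending in _x_at marks, in Affymetrix usage, a set in which some probes also match other transcripts. In 13 of 14 members with such a set its ratio was below the mean of the gene's other sets, by a median of 0.27 in log2 ratio (coded as -0.27, _x_at minus others). The exception was Hnrnpa1. Over all 474 genes with such a set it was below the others in 60.5%, with a median difference of -0.08. Sets ending in _s_at (4 of 10 members lower) and _a_at (5 of 16 lower) were not displaced downward. Their median differences were 0.10 and 0.15 in members, against -0.00053 and 0.013 over all genes. The other sets of a gene can include its _x_at sets, so these comparisons are not independent of each other. The values used for Prpf19, Sf3b2 and Hnrnpf come from _x_at sets. This pattern was noticed in the data, and its source was not tested.

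**Figure D4:**
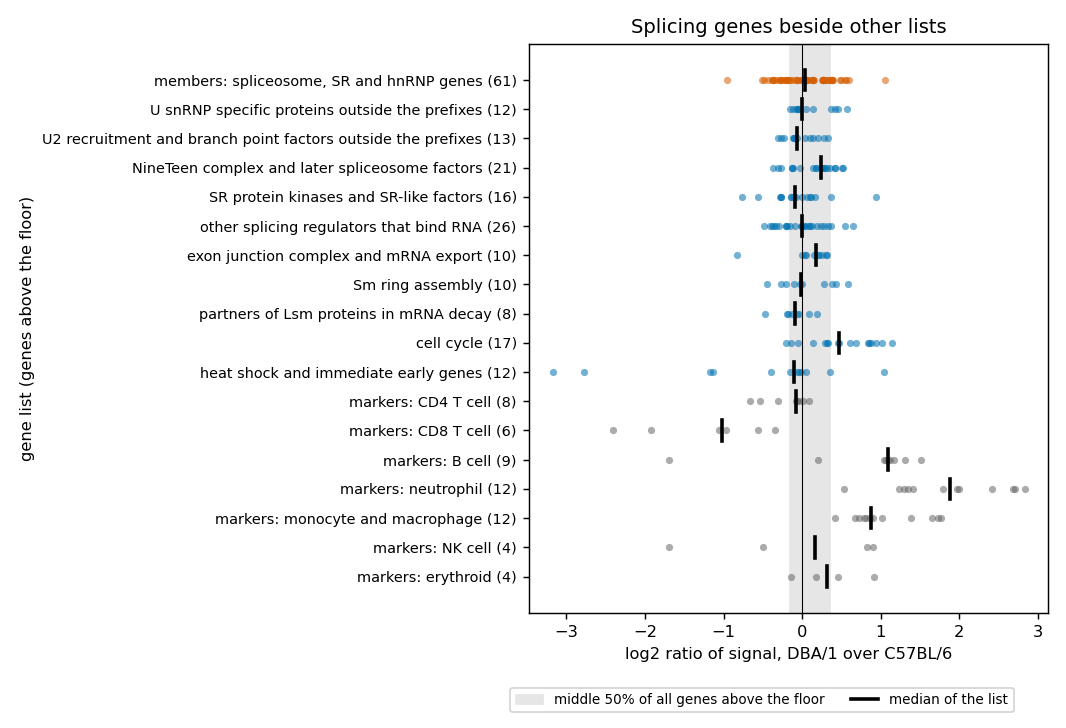
Log2 of DBA/1 signal over C57BL/6 signal (horizontal axis) for single genes (points) above the floor, by list (rows, number of genes in brackets); black bars are list medians and the grey band is the middle 50% of all genes above the floor. Medians of the splicing lists run from -0.10 (partners of Lsm proteins in mRNA decay) to 0.24 (Prpf19 complex and later factors), and that of the cell cycle list is 0.47. The medians of the neutrophil, monocyte and macrophage, B cell and CD8 T cell markers lie outside the band.

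Genes of the splicing pathway that do not carry the 7 prefixes gave a similar picture. Counts in these short lists can be set beside all genes above the floor. Of those, 17.8% were at least 1.5-fold apart (11.8% higher and 5.97% lower in DBA/1), and 60.6% had a ratio above 0. Among 12 proteins of U snRNPs and the tri-snRNP above the floor none was 1.5-fold apart, with a median of 0.00, and Zmat2, Cd2bp2 and Snrnp25 had the largest ratios (0.57, 0.46 and 0.42). Among 13 factors that recruit U2 none was 1.5-fold apart either (median -0.07), with Ddx46, Cherp and Dnajc8 at 0.33, -0.31 and 0.28. The 21 measured factors of the Prpf19 complex and later steps had a median of 0.24, with 14 above 0, none 1.5-fold apart, and Bud31, Ppie and Plrg1 at 0.52, 0.51 and 0.42. Prpf19, at -0.96 in its brightest probe set, was thus lower than all 21 of its functional companions, whose lowest ratio was -0.37, though its dimmest probe set (0.53) was above all of them.

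The 16 SR protein kinases and SR-like factors had a median of -0.09. Srrm2, a large scaffold of nuclear speckles, read 291 in DBA/1 and 152 in C57BL/6 (0.94). Pnn (pinin), a speckle protein bound to the exon junction complex, read 429 in DBA/1 and 730.4 in C57BL/6 (-0.77), and Acin1 was at -0.56. The signal of Srrm2 thus went the opposite way to those of Pnn and Acin1, each read from the brightest probe set alone. Other probe sets of these genes are not given here. Of 26 other RNA-binding splicing regulators 1 was at least 1.5-fold higher in DBA/1, Mbnl3 (129 in DBA/1 and 82.2 in C57BL/6, 0.65), and none that much lower. Nono and Raver1 were next at 0.54 and -0.49, and the list median was 0.00.

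Sm ring assembly genes, whose products load the Sm ring proteins onto RNA, had a median of -0.01 over 10 genes. Of these 5 were above 0, none was 1.5-fold apart, and only 4 reached the minimum signal. Gemin7, Prmt5 and Gemin8 lay at 0.58, -0.45 and 0.43. The assembly genes thus lay on both sides of 0. The Sm ring genes above the floor (Snrpb, Snrpd3, Snrpe and Snrpg) were all above 0 on the deposited scale, while Snrpb lay just below 0 under lowess. The exon junction and export list had a median of 0.18 over 10 genes. Its 1 member at least 1.5-fold apart was Upf1, which read 36.2 in DBA/1, under the floor, and 66.8 in C57BL/6, at least 1.78-fold higher there. Nxt1 and Alyref followed at 0.31 and 0.30. Partners of Lsm proteins in mRNA decay had a median of -0.10 over 8 genes, with Ddx6 (706 in DBA/1 and 983 in C57BL/6) at -0.48, Xrn1 at -0.20 and Slbp at 0.19. Cell cycle genes, by contrast, had 8 of 17 members at least 1.5-fold higher in DBA/1, beside 2 of 61 splicing genes and 11.8% of all genes. They were led by Cdk1, Cdc20 and Prc1 (1.14, 1.02 and 0.94), while 3 of the 17 were lower in DBA/1 (Mcm6, Mcm2 and Mcm4 at -0.20, -0.14 and -0.06).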

How the data were processed

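Biotin-labelled cRNA made from 3 µg of total RNA per sample was hybridised to 1 array per strain, per the labels' protocols. The deposited values are MAS5 signal intensities per probe set on a linear scale, without detection calls; MAS5 is named in the submitters' processing notes, and the sources used here state neither its version nor its scaling target. Probe sets were named through a platform annotation table. Entrez identifiers of all 148 member probe sets matched RefSeq (GRCm38.p6) with the same symbol, and 15 probe sets that name several genes, at least 1 of which has a member prefix, were left out.

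Signals under an array's median were raised to it, log2 ratios were taken, and counts used thresholds of 1.2-fold and 1.5-fold. The number of arrays, 1 per strain, limits precision, and no test was possible. Members and lists were chosen with earlier results of these data known. Named genes are members at least 1.5-fold apart, the 3 largest and 2 smallest ratios of each prefix group, members whose probe sets spread by more than 1, chosen regulators, and the 3 largest ratios of each list; the other members were added to complete the account.

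Alternatives were median centring, quantile normalization, lowess (span 0.3), no floor, a floor at percentile 60, log2(signal + 32), the minimum signal, and other choices of probe set. The ratio and normalization steps were tested on simulated data. Python 3.11.15, pandas 2.3.3, numpy 2.4.6, statsmodels 0.14.6 and matplotlib 3.10.9 were used.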

Additional observations from a re-analysis of the deposited data

How the results depend on the processing

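Scaling changed the sign of small medians: centring lowered every ratio by 0.10. The median of all members was -0.0663 after median centring, -0.10 after quantile normalization and -0.11 under lowess, and that of Hnrnp genes -0.09004, -0.15 and -0.16 in the same order. The Srsf median turned to -0.0371 after quantile normalization, -0.0213 under lowess and -0.0433 with every probe set counted. The Snrp median was 0.0921 after quantile normalization and 0.41 without _s_at and _x_at probe sets, and it was above 0 under all 11 alternatives. The Lsm median was 0.33 over the 4 genes at the minimum signal, and the Prpf median -0.17 with every probe set counted. Members at least 1.5-fold higher in DBA/1 numbered 1 under median centring, quantile normalization, lowess, the floor at percentile 60, log2(signal + 32), the minimum signal and the mean over probe sets, 4 without _s_at and _x_at, and 5 of 136 probe sets. Those at least 1.5-fold lower numbered 3 under the 3 scalings (Hnrnph2 and Sf3b2 beside Prpf19), 0 with the mean over probe sets, and 5 of 136 probe sets. Ratios above 0 numbered 22 of 61 under lowess and 70 of 136 probe sets. Medians not named here moved by less than their probe set error; leaving out _x_at sets alone was chosen after seeing the data. No paired analysis was possible because each strain has 1 array. No cause was tested. Lsm12 and Lsm2 lie near the floor, where signals are least precise.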
